A study of Mus musculus with 20 samples.

Results

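The genes described are Cdc42, a small GTPase, its relative Rac1, and proteins that bind the active GTPases, in the testis of mice given benzo(a)pyrene (B[a]P). All probes annotated with the symbol of 1 of 10 genes were taken, and 9 genes had a probe, 1 each (Cdc42, Cdc42ep1 to Cdc42ep5, Rac1, Pak2 and Wasl), of 16966 named genes and 20868 probes on the array. The list was put together with results of these data known: Cdc42 and Cdc42ep4 were selected from the genes that the study lists as regulated by B[a]P, and the others were added as their relatives. The B[a]P differences of the 9 genes are therefore a description without a test, whereas genotype and interaction were tested.

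RNA of whole testis was measured in 20 male C57BL/6 mice, 5 in each of 4 groups. Both genotypes, Wt and Xpc-/-, were studied as unexposed controls given sunflower oil and as mice given B[a]P once by oral gavage at 13 mg/kg bw, all killed 4 days later. Xpc-/- mice lack a sensor of DNA damage in global genome nucleotide excision repair. The ages of the mice are not given in the sources used here. Each Cy5-labelled sample was hybridised with a Cy3-labelled pool of 3 unexposed Wt testes on an Agilent 22K Mouse array, so that the reference holds no RNA of exposed or Xpc-/- mice, and values below are log2 signals after correction for that reference.

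Cdc42 and Rac1 switch between a GTP-bound form that engages effectors and a GDP-bound form that does not. Guanine nucleotide exchange factors turn them on and GTPase-activating proteins turn them off. Their effectors reach actin and septin filaments: the Cdc42ep (Borg) proteins bind Cdc42 and septins, the p21-activated kinases (PAK) phosphorylate regulators of the cytoskeleton, and N-WASP, the product of Wasl, activates the Arp2/3 complex, which nucleates branched actin. In the testis these GTPases are known for the polarity of Sertoli cells, for the junctions of the blood-testis barrier and for the adhesion of spermatids to Sertoli cells.

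The sequences upstream of the start of Cdc42, Cdc42ep4 and Cdc42ep3 are shown because, among the genes with a RefSeq window, their B[a]P differences lay furthest from 0. Each run holds the 250 bases before the annotated start on GRCm38.p6 (RefSeq), written 5′ to 3′ on the gene's strand, at chr4:137357760-137358009 for Cdc42, chr11:113751816-113752065 for the upstream of 2 starts of Cdc42ep4 and chr17:79355092-79355341 for Cdc42ep3, all on the minus strand. Capitals mark matches on either strand to GCGTG (the core bound by the aryl hydrocarbon receptor, which B[a]P activates), CCAAT (the CCAAT box), TTTGAA (the cell cycle homology region) or TGACGTCA (the cyclic AMP response element), and no match overlapped another.
Cdc42: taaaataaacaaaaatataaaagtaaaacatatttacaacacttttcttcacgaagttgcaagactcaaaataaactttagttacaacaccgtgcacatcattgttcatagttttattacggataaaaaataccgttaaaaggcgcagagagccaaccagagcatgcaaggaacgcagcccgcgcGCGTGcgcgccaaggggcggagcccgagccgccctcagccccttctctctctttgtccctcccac
Cdc42ep4: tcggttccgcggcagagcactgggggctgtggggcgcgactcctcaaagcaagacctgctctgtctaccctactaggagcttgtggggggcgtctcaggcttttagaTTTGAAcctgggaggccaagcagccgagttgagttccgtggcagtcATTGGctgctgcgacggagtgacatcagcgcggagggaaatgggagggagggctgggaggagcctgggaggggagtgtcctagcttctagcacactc
Cdc42ep3: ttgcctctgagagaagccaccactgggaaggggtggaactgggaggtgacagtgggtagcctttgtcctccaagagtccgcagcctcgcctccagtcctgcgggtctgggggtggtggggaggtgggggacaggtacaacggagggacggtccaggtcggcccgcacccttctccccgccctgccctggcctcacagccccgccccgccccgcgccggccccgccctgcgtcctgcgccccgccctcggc

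The Cdc42 window held 1 match, to GCGTG, whose first base lay 65 bases before the start. The Cdc42ep4 window held 1 match to TTTGAA at 143 bases and 1 to CCAAT at 97 bases before the start, and Cdc42ep3 held none. The window of the other Cdc42ep4 start held 2 matches to GCGTG. Over the 7 genes with a RefSeq window, GCGTG was found in Cdc42, Cdc42ep1, Cdc42ep2, Cdc42ep5, Wasl and 1 of the windows of Cdc42ep4, and TGACGTCA in none. CCAAT was also found in Cdc42ep2 and Wasl. Of all 32851 mouse windows of this length, 28.2% held GCGTG, 33.8% CCAAT, 16% TTTGAA and 1.55% TGACGTCA. The windows were rich in G and C in Cdc42ep3 (72.4%) and Cdc42ep4 (61.6%) and less so in Cdc42 (45.2%), where all windows had a median of 52.4%. The other windows with GCGTG were at 79.2% (Cdc42ep1), 71.2% (Wasl), 64.4% (the other Cdc42ep4 start), 61.2% (Cdc42ep2) and 60.4% (Cdc42ep5). The share holding GCGTG among windows of like G and C content was not computed. Nothing is therefore read from the number of genes with GCGTG. The letters describe the windows and say nothing of binding.

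Before the genes are described, 2 arrays have to be named. Xpc-/- control 1 and 2 lay at 38.4 and 40.5 on the first principal component of all probes (24.5% of the variance), where the other 18 mice lay between -18.7 and 8.10. Correlations between arrays of 1 group ran from 0.964 to 0.994. The Xpc probe itself averaged 7.39 (SD 0.20) in unexposed and 7.29 (SD 0.20) in exposed Wt mice, against 6.72 (SD 0.29) and 6.56 (SD 0.21) in Xpc-/- mice (n = 5 each), so the labels and the probe go the same way. The place of this probe relative to the deleted part of the gene was not known. As for the tissue, all 8 spermatocyte markers and 7 of 9 spermatid markers lay in the brightest 25% of probes, 4 of 11 Sertoli and 4 of 6 Leydig cell markers did, and none of 5 macrophage and 5 endothelial markers did. Whether a probe's signal in whole testis moves through the number of cells of a type or through the RNA in each cell cannot be told apart.

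Cdc42 had a higher mean signal after B[a]P in both genotypes. In Wt control mice 1 to 5 the log2 signal was 9.93, 9.74, 10.16, 9.68 and 9.83, and in Wt B[a]P mice 10.16, 10.14, 10.45, 10.29 and 10.40. In Xpc-/- control mice it was 9.19, 9.38, 10.08, 9.92 and 10.06, and in Xpc-/- B[a]P mice 10.26, 10.05, 10.27, 10.13 and 10.84. In each genotype 4 of 5 exposed mice lay above the highest control and all 5 lay above the control mean, while the groups overlapped through Wt control 3 and through Xpc-/- B[a]P 2. The mean difference over both genotypes was 0.50 (SE 0.11), a ratio of 1.42, with 0.42 (SE 0.15) in Wt and 0.59 (SE 0.15) in Xpc-/- mice. Xpc-/- control 1 and 2 were the lowest of all 20 mice for Cdc42. Without them the difference was 0.36 (SE 0.09) over both genotypes and 0.29 (SE 0.14) in Xpc-/- mice.

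Cdc42ep4 (Borg4), which links Cdc42 to septin filaments, also had a higher mean signal after B[a]P. The 5 Wt control mice lay at 9.02, 8.89, 8.90, 8.98 and 8.89, and the Wt B[a]P mice at 9.65, 9.27, 9.32, 9.32 and 9.19. The Xpc-/- control mice lay at 9.06, 9.28, 9.00, 8.94 and 8.75, and the Xpc-/- B[a]P mice at 9.50, 9.22, 9.31, 9.37 and 9.47. In Wt mice every exposed value was above every control value, and in Xpc-/- mice only control 2 reached into the exposed range. The difference was 0.39 (SE 0.08) over both genotypes, a ratio of 1.31, with 0.41 (SE 0.11) in Wt and 0.37 (SE 0.11) in Xpc-/- mice. Here the arrays that stand apart lay high among the Xpc-/- controls, opposite to Cdc42, and the difference without them was 0.44 (SE 0.08) over both genotypes and 0.48 (SE 0.11) in Xpc-/- mice.

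Cdc42ep3 (Borg2), of the same family, had a lower mean signal after B[a]P. Its signal was 10.89, 11.04, 10.88, 10.42 and 10.68 in Wt control and 9.99, 10.40, 10.46, 10.79 and 10.19 in Wt B[a]P mice. In Xpc-/- mice the controls were at 9.92, 9.75, 11.28, 11.02 and 10.89, and the exposed mice at 10.48, 10.60, 10.15, 10.40 and 10.74. Xpc-/- control 1 and 2 were below all 18 other mice, and the other 3 Xpc-/- controls were above all 5 exposed Xpc-/- mice. With 20 mice the difference was -0.26 (SE 0.15) over both genotypes, -0.42 (SE 0.21) in Wt and -0.10 (SE 0.21) in Xpc-/- mice. Without these 2 arrays it was -0.51 (SE 0.10) over both genotypes and -0.59 (SE 0.15) in Xpc-/- mice, past the threshold of adjusted p = 0.05 in both, in a contrast the choice of genes had used. That fit called 11.5% of all probes over both genotypes.

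**Figure D1:**
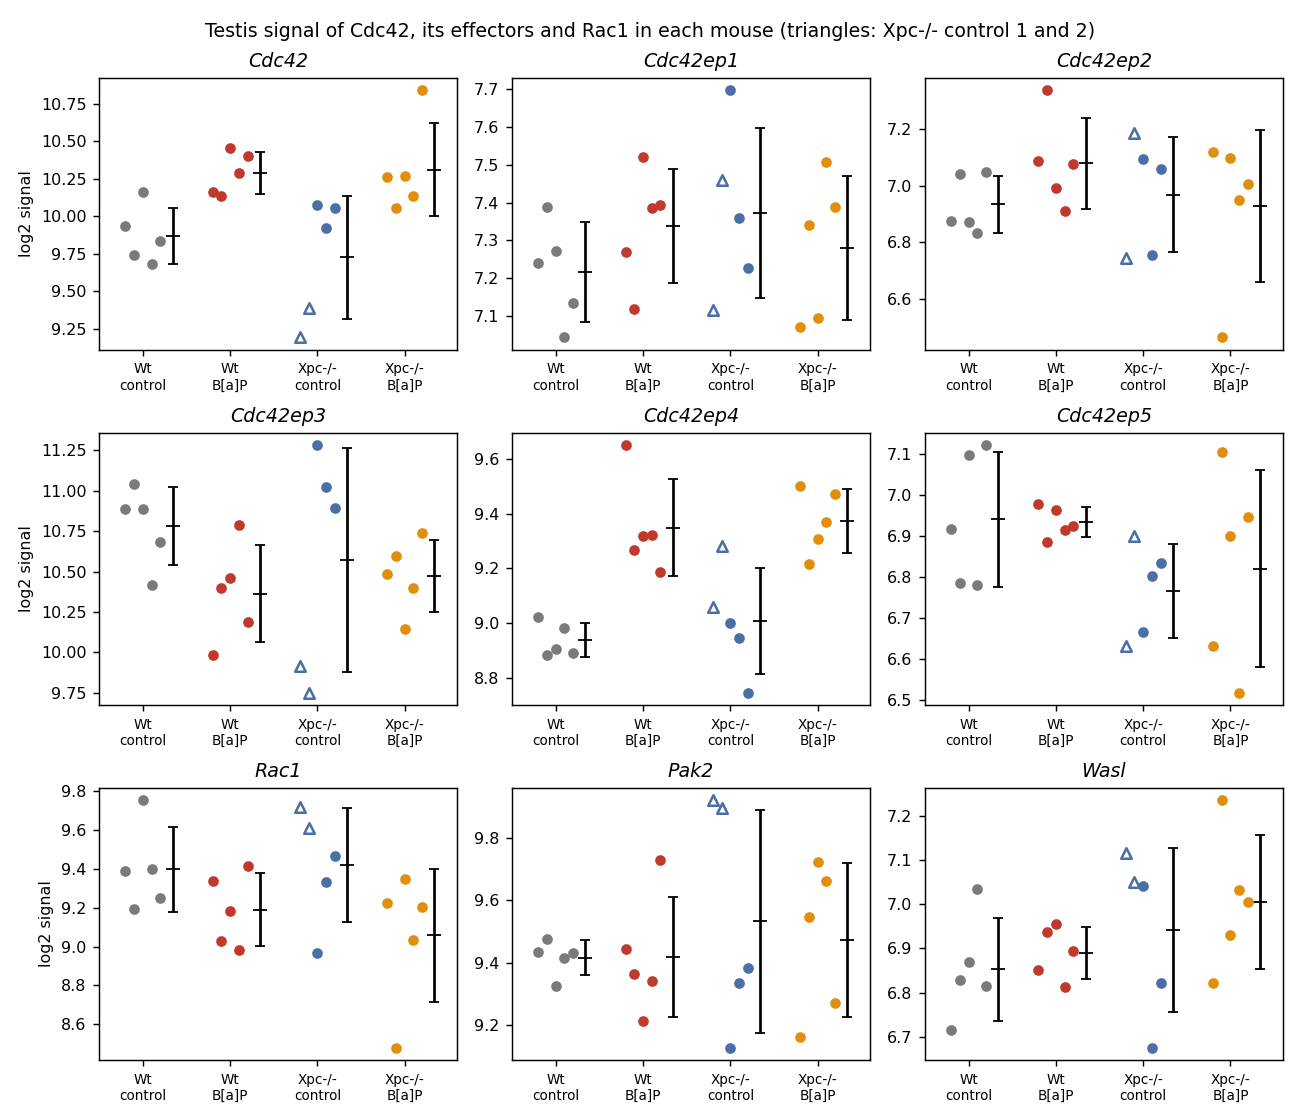
Log2 signal (y axis) of the 9 genes in each of 20 mice by group (x axis), with the mean and SD of each group of 5 in black. Triangles mark Xpc-/- control 1 and 2, the lowest mice for Cdc42 and Cdc42ep3 and the highest for Pak2.

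The remaining Borg genes showed smaller differences. Cdc42ep1 (Borg5) lay between 7.04 and 7.70 over all mice, with a B[a]P difference of 0.02 (SE 0.08) over both genotypes. Cdc42ep2 (Borg1) lay between 6.46 and 7.34, with 0.05 (SE 0.09), and Cdc42ep5 (Borg3) between 6.52 and 7.12, with 0.02 (SE 0.08). In Wt mice Cdc42ep1 and Cdc42ep2 were at 0.12 (SE 0.12) and 0.15 (SE 0.12) and in Xpc-/- mice at -0.09 (SE 0.12) and -0.04 (SE 0.12). Of these genes Cdc42ep5 fell among the dimmest 25% of probes (mean signal up to 6.91) and Cdc42ep1 and Cdc42ep2 among the next 25%. Local background was not stated to be subtracted, so a dim probe's signal cannot be told from background there.

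Rac1, which drives lamellipodia through the WAVE complex, had a lower mean after B[a]P, by 0.28 on the log2 scale over both genotypes (difference -0.28, SE 0.10). The Wt control mice were at 9.39, 9.19, 9.75, 9.40 and 9.25 and the Wt B[a]P mice at 9.34, 9.03, 9.18, 8.98 and 9.41. The Xpc-/- control mice were at 9.72, 9.61, 8.97, 9.33 and 9.46 and the Xpc-/- B[a]P mice at 9.22, 8.48, 9.35, 9.03 and 9.20. The groups overlapped in both genotypes, Xpc-/- B[a]P 2 was the lowest of all mice, and Xpc-/- control 1 and 2 were the highest of their group. Without these controls the difference was -0.20 (SE 0.10), and it passed the threshold only when Xpc-/- control 3, the lowest unexposed mouse, was left out (-0.34).

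The B[a]P differences of the effectors Pak2 and Wasl were smaller than 1 SE over both genotypes, at -0.03 (SE 0.10) and 0.05 (SE 0.07). Pak2, a ubiquitous p21-activated kinase, was at 9.43, 9.48, 9.33, 9.41 and 9.43 in Wt control and 9.44, 9.36, 9.21, 9.34 and 9.73 in Wt B[a]P mice. Its Xpc-/- controls were at 9.92, 9.90, 9.13, 9.33 and 9.38 and the Xpc-/- B[a]P mice at 9.16, 9.55, 9.72, 9.66 and 9.27. Xpc-/- control 1 and 2 were above all 18 other mice, and the B[a]P difference in Xpc-/- mice was -0.06 (SE 0.14) with them and 0.19 (SE 0.13) without. Wasl lay between 6.67 and 7.24, among the same dim probes as Cdc42ep1 and Cdc42ep2, with 0.04 (SE 0.10) in Wt and 0.06 (SE 0.10) in Xpc-/- mice.

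Over the 9 genes the B[a]P difference over both genotypes had a median of 0.02, against -0.01 over all probes. In limma with Benjamini-Hochberg adjustment over all probes, 2 of 9 genes (Cdc42 and Cdc42ep4, both rising) were below an adjusted p of 0.05, where 5.68% of all probes were called in either direction and 3.57% rising. These are the genes on which the list was chosen, and nothing is read from the count. None of the 9 was called within Wt mice alone (0.695% of probes called) or within Xpc-/- mice alone (0.647%), where 2 and 3 had an unadjusted p under 0.05, and the ordinary analysis of variance also called 0 in each. The share of all probes at that unadjusted level is not given here, so nothing is read from the 2 and 3. Every exposed mouse lay above every control mouse for 1 of 9 genes in Wt mice (Cdc42ep4, where 2.39% of all probes did) and for 0 of 9 in Xpc-/- mice (1.58% of probes). Cdc42ep4 was chosen as a gene regulated by B[a]P, so nothing is read from its separation either. Calls were unequal over brightness: 16.1% of the brightest 25% of probes, which hold Cdc42, Cdc42ep3, Cdc42ep4, Rac1 and Pak2, were called for B[a]P. Among the 25% of probes next to the dimmest, which hold Cdc42ep1, Cdc42ep2 and Wasl, 0.92% were called, and 0.23% among the dimmest.

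**Figure D2:**
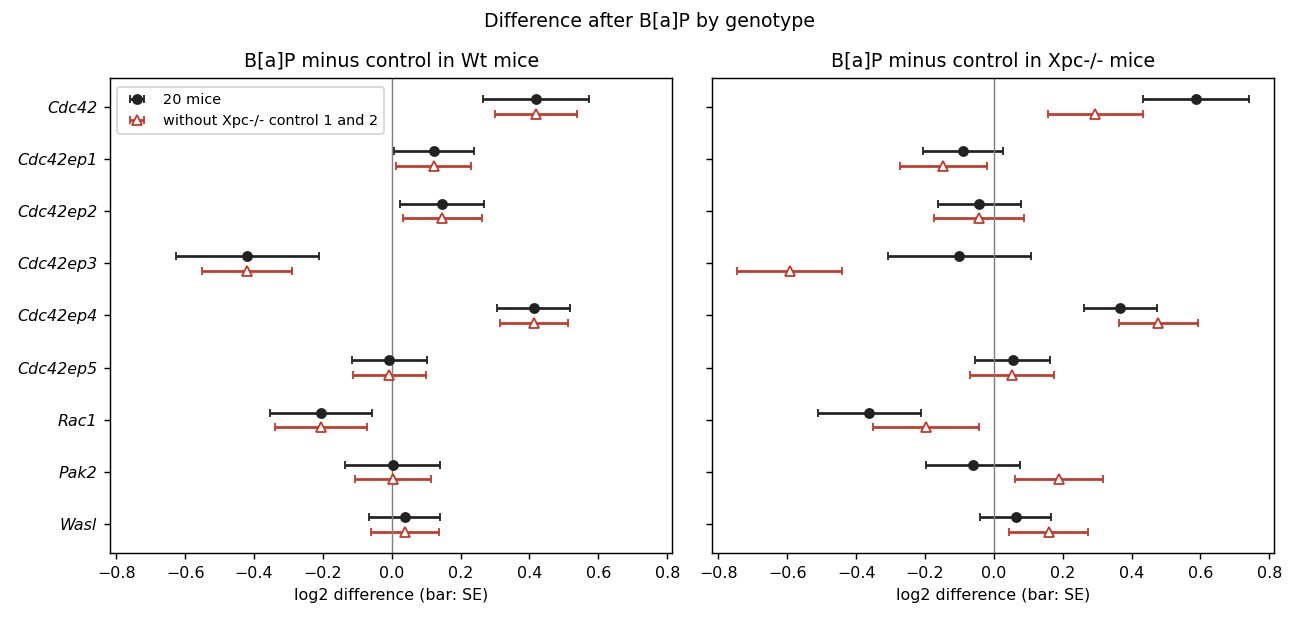
Log2 difference between B[a]P and control mice (x axis, bars are SE) of each gene (y axis) in Wt (left) and Xpc-/- mice (right), from 20 mice (circles) and without Xpc-/- control 1 and 2 (triangles). In Xpc-/- mice Cdc42 moved from 0.59 to 0.29, Cdc42ep3 from -0.10 to -0.59 and Pak2 from -0.06 to 0.19, while Cdc42ep4 was at 0.37 and 0.48.

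The 2 arrays that stand apart thus touched these genes unequally. Compared with the mean of Xpc-/- control 3 to 5, their mean was lower by 1.23 for Cdc42ep3 (difference -1.23) and by 0.73 for Cdc42 (-0.73), and higher for Pak2 (0.62), Rac1 (0.41), Cdc42ep4 (0.27) and Wasl (0.24). Both lay below all 18 other mice for Cdc42 and Cdc42ep3 and above all 18 for Pak2. For Cdc42ep2 and Cdc42ep5 the mean difference was 0.00, and for Cdc42ep1 it was -0.14. What sets these arrays apart was not tested.

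**Figure D3:**
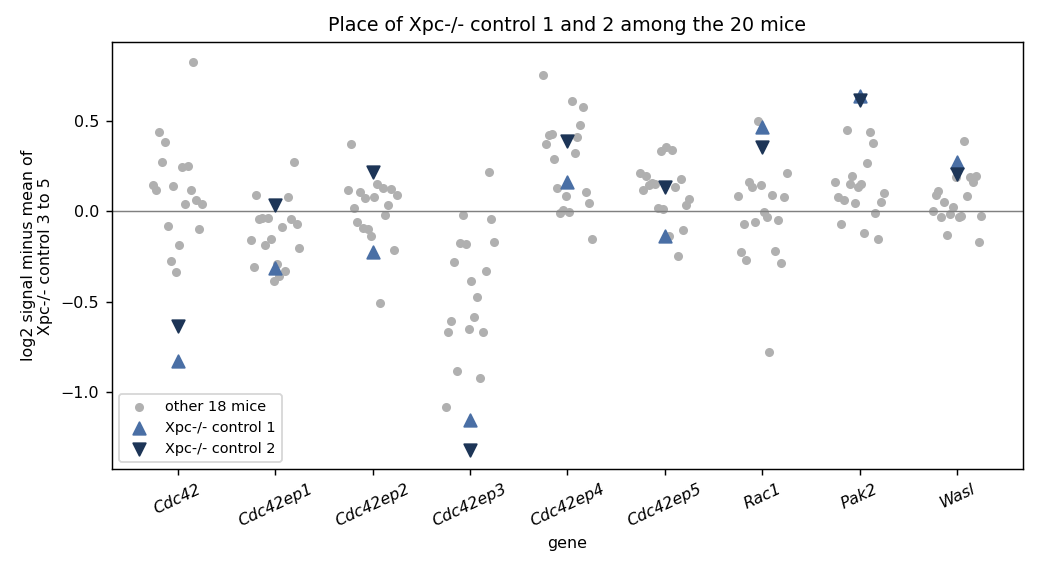
Log2 signal of each mouse minus the mean of Xpc-/- control 3 to 5 (y axis) for each gene (x axis), with Xpc-/- control 1 and 2 as blue triangles and the other 18 mice in grey. The triangles lie below every grey point for Cdc42 and Cdc42ep3 and above every grey point for Pak2.

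Whether these genes differed by genotype was tested among unexposed mice, among exposed mice and over all mice. No gene was called in any of the 3 contrasts by limma or by the ordinary analysis of variance, and none had an unadjusted p under 0.05 in limma, while 0%, 0.00479% and 0.0192% of all probes were called. In unexposed mice the differences between Xpc-/- and Wt ran from -0.21 (Cdc42ep3, 95% interval -0.63 to 0.21) to 0.16 (Cdc42ep1, -0.08 to 0.39), with a smallest adjusted p of 0.894. Cdc42 was at -0.14 (-0.46 to 0.17) and Cdc42ep4 at 0.07 (-0.15 to 0.29). The sign of 6 of these 9 differences turned without Xpc-/- control 1 and 2, where Cdc42ep3 was at 0.28 (-0.02 to 0.59), Cdc42 at 0.15 (-0.13 to 0.43), Pak2 at -0.13 (from 0.12), Rac1 at -0.14 (from 0.02), Cdc42ep4 at -0.04 and Wasl at -0.01 (from 0.09). None was called in that fit either, and none had an unadjusted p under 0.05, so the data give no direction for these genes. In exposed mice the differences ran from -0.15 (Cdc42ep2) to 0.12 (Wasl), with a smallest adjusted p of 0.987, and Cdc42 was at 0.02 (-0.29 to 0.34). Over both treatments the adjusted p was smallest for Cdc42ep5 (-0.14, interval -0.30 to 0.02, limma adjusted p = 0.747), a dim probe, and 4 of 9 signs turned without the same arrays (Cdc42, Cdc42ep3, Cdc42ep4 and Pak2). The intervals leave room for differences of up to 0.63 for Cdc42ep3, and the number of arrays limits the precision.

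The interaction asked whether the response to B[a]P differed between the genotypes. For Cdc42 the difference of responses (Xpc-/- minus Wt) was 0.17 (95% interval -0.28 to 0.61), and for Cdc42ep4 it was -0.04 (-0.35 to 0.26). For Cdc42ep3 it was 0.32 (-0.28 to 0.92) and for Rac1 -0.15 (-0.58 to 0.27). Without Xpc-/- control 1 and 2 the sign turned for 5 of 9 genes: Cdc42 was at -0.12 (-0.49 to 0.25), Cdc42ep3 at -0.17 (-0.58 to 0.23), Cdc42ep4 at 0.07 (-0.24 to 0.37), Rac1 at 0.01 (-0.41 to 0.42) and Pak2 at 0.19 (-0.15 to 0.53), against -0.06 for Pak2 with 20 mice. None of the 9 genes was called by limma or by the ordinary analysis of variance, and 0% of all probes were. No unadjusted p was under 0.05 with or without these arrays, and every limma adjusted p was 0.999 with 20 mice.

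The genes were also compared within groups. Over the 18 mice other than Xpc-/- control 1 and 2, deviations from the group means were compared for 36 pairs of genes. Pearson's r ran from -0.52 (Rac1 and Wasl) to 0.57 (Cdc42ep1 and Cdc42ep3), and no pair passed Benjamini-Hochberg adjustment (permutation within groups, two-sided, 100000 resamples). The highest, of Cdc42ep1 and Cdc42ep3, had p = 0.0216 (adjusted 0.687) with a Spearman coefficient of 0.52 (p = 0.0450, adjusted 0.582), and r = 0.67 without the 2 mice farthest from the median of Cdc42ep1. Cdc42 and Cdc42ep4, both higher after B[a]P, had r = 0.09 (p = 0.740, adjusted 0.953) and a Spearman coefficient of 0.09 (p = 0.723, adjusted 0.994), and r = -0.06 without the 2 farthest mice.

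The genes whose deviations were most like those of Cdc42 over 20 mice were Iftap (r = 0.875), the receptor-like kinase gene Ryk (0.867), Dync1h1 (0.849), the cytoplasmic dynein heavy chain, Prc1 (0.848), a microtubule bundler of cytokinesis, and Dennd1a (0.845). Without the arrays that stand apart these were 0.770, 0.793, 0.747, 0.694 and 0.666. For Cdc42ep4 they were Gsk3b (0.831), a kinase of Wnt signalling, Pth2 (0.822), Rnmt (0.820), Arhgap17 (0.814), a GTPase-activating protein for Cdc42 and Rac1, and A630089N07Rik (0.790), with 0.686 to 0.786 over 18 mice. These r values are a description, picked as the highest of all named probes, and the points share arrays and normalization.

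Other genes of the pathway were taken from 6 lists. Of their 158 genes 141 were measured by their brightest probe, 4 rose and 1 fell after B[a]P in limma, where 4.02% of named genes rose and 2.34% fell, and 34 of the 141 had an unadjusted p under 0.05. The share of all named genes at that unadjusted level is not given here, so nothing is read from the 34. The median of the 141 was -0.01, as over all named genes. Ect2, an exchange factor that acts in cytokinesis, rose by 0.43 (SE 0.08, adjusted p = 0.00218), from 9.60 ± 0.19 to 9.93 ± 0.19 in Wt and from 9.49 ± 0.20 to 10.03 ± 0.17 in Xpc-/- mice (SD, n = 5 each), and was the 1 call among 34 exchange factors. Cit (citron kinase, also of cytokinesis) rose by 0.35 (SE 0.08, adjusted p = 0.00800) and Pak3, a PAK best known from neurons, fell by 0.28 (SE 0.08, adjusted p = 0.0278), the only calls among 35 other effectors. Ect2 and Cit are in gene tables of the study made on these mice, so they are not independent of it.

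Of 22 genes of the Arp2/3 complex, its partners and cofilin control, 2 rose. Arpc5, a subunit of the Arp2/3 complex, went from 9.63 ± 0.24 to 9.93 ± 0.23 in Wt mice, and was at 9.73 ± 0.18 and 10.12 ± 0.08 in the Xpc-/- groups (SD, n = 5 each), a rise of 0.35 (SE 0.09, adjusted p = 0.0137). Nck1, an adaptor that binds N-WASP, rose by 0.28 (SE 0.08, adjusted p = 0.0448), a call that held in 8 of 20 fits without 1 mouse. Ect2, Cit and Arpc5 were called in all 20 of these fits and Pak3 in 14. None of 20 GTPase-activating proteins and GDP dissociation inhibitors and 12 septins, the filament partners of the Borg proteins, was called in the fit of 20 mice. Their differences lay between -0.25 and 0.25, with 5 and 4 genes at an unadjusted p under 0.05 and 0 calls by the ordinary analysis of variance. The unadjusted counts again have no share of all genes beside them.

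Without Xpc-/- control 1 and 2 there were 9 rising and 7 falling genes. Ect2, Cit, Arpc5 and Pak3 were again among them, and Nck1 was not. Arhgap5, Bcr, Limk1, Septin1, Septin8 and Ssh3 joined the rising genes. Of the lists reported separately, Chn1, Diaph2, Fgd6, Septin4 (a septin of the sperm annulus) and Ssh2 joined the falling genes. With these arrays left out 11.5% of all probes were called, and nothing is read from the lists in which the added calls fell.

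**Figure D4:**
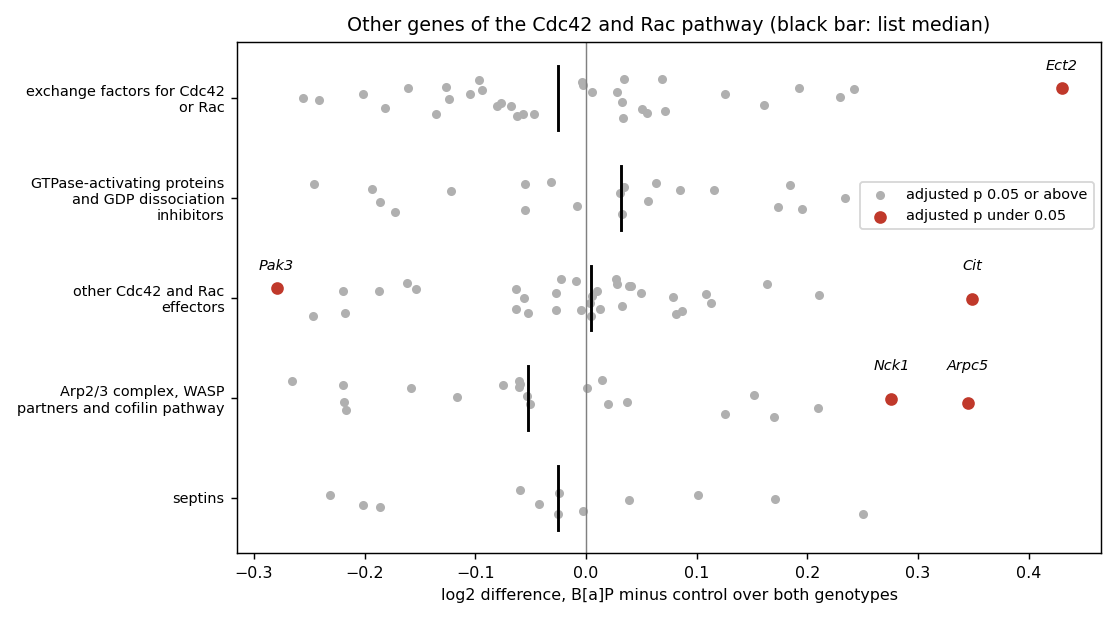
Log2 difference between B[a]P and control mice over both genotypes (x axis) for the 123 measured genes of 5 pathway lists (y axis), a point a gene, with the list median as a black bar. The 5 called genes are in red and named, and the medians lie close to 0, from -0.05 to 0.03.

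Some markers of cell types were higher after exposure, as Cdc42 and Cdc42ep4 were. Of 5 markers of peritubular myoid cells and smooth muscle 2 rose, Tagln by 0.43 (adjusted p = 0.000536) and Cnn1, a calponin, by 0.33 (adjusted p = 0.0244), of which the ordinary analysis of variance called 1, and the mean level of the list relative to Wt control lay between -0.03 and 0.02 in Wt control, 0.04 and 0.24 in Wt B[a]P, -0.15 and -0.03 in Xpc-/- control and 0.10 and 0.32 in Xpc-/- B[a]P mice. Exposed and control mice did not overlap on this list in either genotype, in Wt mice narrowly (highest control 0.023, lowest exposed 0.037). In Wt mice Tagln was at 0.43, Cnn1 at 0.13, Acta2 at 0.05, Myh11 at 0.03 and Des at -0.005. How often lists of this size separate in this way was not computed. Single probes did so, with exposed mice higher, in 2.39% (Wt) and 1.58% (Xpc-/-) of cases. Of 8 spermatocyte markers 2 rose, Sycp2 by 0.38 (adjusted p = 0.0137) and Sycp3 by 0.40 (adjusted p = 0.00409), with list levels between -0.10 and 0.11, 0.03 and 0.25, -0.09 and 0.12, and 0.09 and 0.18 in the same order of groups. These levels overlapped between exposed and control mice in both genotypes. The uncalled spermatocyte markers were at 0.13 (Tex101), 0.09 (Sycp1), 0.06 (Ccna1), 0.03 (Piwil1), 0.01 (Hormad1) and -0.13 (Spo11). Sycp3 is in gene tables of the study made on these mice, so it is not independent of it. The counts of called markers stand beside 4.02% of named genes rising, and beside 16.1% of the brightest 25% of probes called in either direction, among which all 8 spermatocyte markers and 2 of the 5 peritubular markers lie. No marker of Sertoli cells (11 measured), Leydig cells (6), macrophages (5), endothelium (5), spermatogonia (7) or spermatids (9) was called by limma or by the ordinary analysis of variance, with 4 Sertoli, 2 Leydig, 1 macrophage and 0 of the other markers at an unadjusted p under 0.05. Only 1 of the 9 spermatid markers had a difference above 0. Prm1, Prm2 and Tnp1 had the same difference in Wt mice (-0.20), and Prm2 and Tnp1 also in Xpc-/- mice (-0.02), so they are not separate measurements there. Prm1 and Prm2 lay at the top of the signal range (mean 15.93). The count of spermatid markers thus holds repeated values. For the marker counts at an unadjusted p under 0.05 the share of all genes is not given here, so nothing is read from them. The part of the marker shifts in the values of Cdc42 and Cdc42ep4 was not tested.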

How the data were processed

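Natural log signals of 20868 probes in 20 arrays were deposited. Per the paper's methods, the authors read the spots with Imagene, took the natural logarithm, applied quantile normalization, used the reference channel to correct the sample channel spot by spot, and took the mean of repeated spots. Subtraction of local background was not given in the sources used here, and scanner files were not analysed here. They were converted to log2 and fitted in limma 3.58.1 (R 4.3.3) with a mean for each of 4 groups, over all probes, with Benjamini-Hochberg adjustment at 0.05. The fit was tested on simulated data. Symbols came from a platform table (18303 probes with 1 symbol, 2565 with none), updated by Entrez ID for 18134. Pak1 was matched by neither symbol nor Entrez ID. The brightest probe stood for a gene of a list. Of 6 pathway lists, 1 enters only the totals and is not reported separately here.

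The genes and lists were chosen with earlier results of these data known. Named were every gene with a probe, up to 3 called genes per direction of each pathway list, and the 5 probes most like Cdc42 and Cdc42ep4. That samples come from separate mice is taken from the paper's methods, which give 5 mice per group, while the labels only number the samples. Alternatives were the ordinary two-way analysis of variance, replicate number as a block, leaving out arrays, 2 normalizations, a filter on the dimmest 25% of probes, moderated variance with trend, array weights, and the mean of a gene's probes.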

Additional observations from a re-analysis of the deposited data

Results flagged for a closer look

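Of 36 groups of 5 mice tested (9 genes in 4 groups), 2 held a mouse far from the other 4 by Dixon's criterion (gap over range above 0.71), where chance flags about 1 in 20 groups. Cdc42 was at 10.84 in Xpc-/- B[a]P mouse 5, with the others between 10.05 and 10.27 (gap over range 0.729). Cdc42ep2 was at 6.46 in Xpc-/- B[a]P mouse 2, with the others between 6.95 and 7.12 (0.744). Without Xpc-/- B[a]P mouse 2 the difference of Cdc42ep2 in Xpc-/- mice was 0.07 in place of -0.04.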

How the results depend on the processing

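Cdc42 and Cdc42ep4, chosen on this contrast, were called over both genotypes under each alternative run, which is no independent support. No gene was called for genotype or interaction under any of them. Direction was compared only for differences called in the main limma fit of 20 mice, those of Cdc42 and Cdc42ep4 over both genotypes, and 0 turned. Some uncalled differences did change sign. Cdc42ep3 in Xpc-/- mice went from -0.10 to 0.08 without Xpc-/- control 3. Pak2 over both genotypes went from -0.03 to 0.10 without Xpc-/- control 1 and 2. Leaving out Xpc-/- control 1 and 2 together gave 3 genes called over both genotypes (Cdc42ep3 falling), where 11.5% of all probes were called. It gave 1 in Wt and 2 in Xpc-/- mice, with 9 rising and 7 falling pathway genes. Array weights gave 3, 2 and 1, with 11 rising and 8 falling pathway genes, where 12.6% of all probes were called over both genotypes. The shares of all probes called within 1 genotype under the alternatives are not given here, so those counts have no background. Cyclic loess gave 2 falling pathway genes. Leaving out 1 mouse at a time gave 2 to 3 genes over both genotypes (3 without Xpc-/- control 3, which added Rac1), 0 to 1 in Wt mice (1 without Xpc-/- control 2, Cdc42ep4), 0 to 1 in Xpc-/- mice (Cdc42ep4 without control 2, Cdc42 without control 3), 3 to 6 rising and 0 to 4 falling pathway genes, with both highest values without Xpc-/- control 2. The cause of these shifts was not tested. Rising probes were 62.7% of all calls, 48.9% without Xpc-/- control 1 and 2 and 50.1% with array weights, which called 12.6% of all probes.

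Replicate numbers did not pair the mice: deviations of the 30 pairs of arrays with the same number had a median r of 0.000237 (-0.227 to 0.323), and 5 of 20 mice correlated best with their own number. With the replicate number as a block 1 gene (Cdc42) was called in Xpc-/- mice, and the other counts stayed within 1.5 times.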
